A study of Salmo trutta with 24 samples.

Results

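Amino acids that are not used to make proteins are broken down mainly in the liver. Aminotransferases move the amino group onto 2-oxoacids, glutamate dehydrogenase releases it as ammonia, and the carbon skeletons are burned or turned into glucose. In mammals the ammonia enters the urea cycle, whereas adult bony fish excrete most of it through the gills and use arginase mainly to degrade arginine. The genes described here are those of this catabolism in the liver of male brown trout (*Salmo trutta*). They were chosen by annotation name, with earlier results of these data known. The set held every transcript whose first annotation named an aminotransferase, arginase, glutamate dehydrogenase, phenylalanine hydroxylase or another of a fixed list of enzymes. The list covered phenylalanine, tyrosine, tryptophan, histidine, serine, glycine, proline, arginine and ornithine breakdown. This gave 213 of the 66359 assembled transcripts and 50 of the 11585 annotated genes (48 zebrafish entries and 2 human entries). The name match also took up *psat1*, an enzyme of serine synthesis, *dmgdh*, which oxidizes dimethylglycine, the ornithine decarboxylase inhibitors *oaz1a*, *oaz1b* and *oaz2*, and 5 genes named for a related enzyme (*fahd1*, *fahd2a*, *hpdl*, *agxt2l1* and *agxt2l2*). Gene symbols were assigned from the annotation names. The transcripts fell into 61 components of the assembly (groups of contigs built from shared reads), and 9 of these also held transcripts with other annotations.

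The fish were mature males exposed for 4 days by the study's methods and the sample labels, although the labels' protocol text gives 14 days. There were 6 control fish kept in clean water and 3 fish in each of 6 exposed groups. For 17β-estradiol (E2) the measured concentrations were 34.4 ng/l, 18.1 ng/l and 1.9 ng/l, and for linuron they were 225.9 µg/l, 15.3 µg/l and 1.7 µg/l. E2 is the main natural estrogen, and linuron is a phenylurea herbicide that blocks the androgen receptor. No genotype or strain was given. By the study's methods each E2 concentration was a single tank, so effects of tank and of E2 cannot be told apart. The tanks of the linuron groups are not given in the sources used here. The controls came from duplicate tanks, and the labels do not say which fish came from which. All 6 comparisons with control used the same 6 control fish.

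Each liver gave between 3894392 and 10736246 counts, the lowest in control fish 3. The members held 0.539 to 1.15% of these counts. Fish of a group differed by far more than sampling noise, with a mean chi-square per transcript of at least 10.4 for each pair. They were therefore not repeat counts of the same library. This does not show that fish sharing a tank are independent samples of an exposure. The summed level of 14 liver markers was 96861 to 135459 CPM (counts scaled to a common library size) in the controls and lower, at 75461 to 86764 CPM, in all 3 fish at 34.4 ng E2/l, where 1 of the 14 markers (fibrinogen gamma, *fgg*) was called lower (log2 fold change -1.004, edgeR adjusted p = 0.0464) and their median log2 fold change was -0.59. Markers of the exocrine pancreas were at 0 to 22.1 CPM in all fish. The 8 white blood cell markers summed to 264 to 564 CPM in the controls and 231 to 293 CPM at 34.4 ng E2/l, none called. Their median log2 fold change in that group was -0.65. It was -0.77 for bile duct and stellate cell markers, -0.57 for endothelium, -1.19 for exocrine pancreas and -0.20 for red blood cells, none called. The 5 estrogen response markers (vitellogenin, zona pellucida proteins, nothepsin and the estrogen receptor) were all called higher in that group. The part of these shifts in the results that follow was not tested. In liver pieces, fewer cells of a type and less RNA per cell cannot be told apart.

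At 34.4 ng E2/l, genes that begin phenylalanine and tyrosine breakdown, an alanine-glyoxylate aminotransferase, glutamate dehydrogenase and arginase were lower than in the controls. No member was called higher. Of the 199 member transcripts listed for this comparison, 31 were called lower and 0 higher at an adjusted p under 0.05 (edgeR's quasi-likelihood test, adjusted over all 59151 transcripts). Over all transcripts, 0.791% were called lower and 1.47% higher. The 31 belonged to *tat* (15 of its 16 transcripts), *pah* (6 of 14), *agxtb* (4 of 4), *glud1b* (3 of 7), *got2a* (2 of 11) and *arg1* (1 of 1). With counts summed per annotated gene, 6 of 47 members were called lower and 0 higher, against 1.5% lower and 1.96% higher of all 11051 genes. These were *tat*, *agxtb*, *arg1*, *glud1b*, *pah* and *dmgdh*. At an unadjusted p under 0.05, 4 member genes were higher and 18 lower, beside 8.21% and 9.36% of all genes. For the transcripts these were 9 higher and 60 lower, beside 6.36% and 7.14% of all. In 54 of the 199 transcripts all exposed fish lay below all controls and in 6 above, beside 3.57% and 5.22% of all transcripts. The median log2 fold change was -0.45 over the 47 genes, beside -0.0049 over all genes, and -0.18 over the 199 transcripts, beside 0.02 over all transcripts. With library totals in place of the scaling factors, the medians were -0.18 (all genes 0.25) and 0.02 (all transcripts 0.22), so the members stayed below all features while the sign of the transcript median turned. With the scaling factors, member medians were also negative in the other exposed groups. For transcripts they were -0.23 at 18.1 and -0.094 at 1.9 ng E2/l, and -0.039, -0.20 and -0.19 at 225.9, 15.3 and 1.7 µg linuron/l. For genes they were -0.20, -0.11, -0.31, -0.18 and -0.30 in that order, beside -0.033 to 0.013 over all features. Without exposed fish 1, 2 or 3 at 34.4 ng E2/l, the transcripts called numbered 10, 14 and 15, and the genes 2, 4 and 2. All of the transcripts and genes called without 1 exposed fish were among those named here. DESeq2 called 50 transcripts and 13 genes, all lower (4.81% of all transcripts and 8.04% of all genes in either direction). The exact test called 2 genes higher, *psat1* and *ass1*, beside 9 lower, and the model of all 7 groups called 20 transcripts. Shares of all features are not given for the exact test, the runs without 1 fish or, as an alternative, the model of all 7 groups. This also holds for the comparisons below. These counts of members therefore do not show whether members changed more than other features.

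The first steps of phenylalanine and tyrosine breakdown held 21 of the 31 called transcripts and 2 of the 6 called genes, *tat* and *pah*, which are split over 16 and 14 transcripts. *tat* (tyrosine aminotransferase, ENSDARG00000069630) starts tyrosine breakdown and is a classical target of glucocorticoids in mammalian liver. Its summed level was 1174, 1437 and 1908 CPM (lowest, median and highest) in the controls and 342, 329 and 372 CPM in fish 1, 2 and 3 at 34.4 ng E2/l. The exposed fish lay close together and all far below the lowest control. The mean fell from 1464 ± 262 (SD, n = 6) to 348 ± 21.9 CPM (SD, n = 3) on the common scale of all fish. On the scale of this comparison the level was 4.63-fold lower (log2 fold change -2.21, standard error 0.23, edgeR adjusted p = 0.000111). The 16 transcripts had log2 fold changes of -2.23 to -1.66. The most abundant of them (comp92638_c1_seq1) went from 329 ± 37.5 to 73.7 ± 2.14 CPM.

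*pah* (phenylalanine hydroxylase, ENSDARG00000020143), which turns phenylalanine into tyrosine, had 650.0, 722 and 974 CPM in the controls and 392, 378 and 414 CPM in the exposed fish. The groups did not overlap. The level was 2.16-fold lower (log2 fold change -1.11, standard error 0.20, edgeR adjusted p = 0.0103). This call was lost without any 1 of the exposed fish (adjusted p = 0.0972, 0.0660 and 0.0649 without fish 1, 2 and 3). All 14 transcripts had negative fold changes. Component comp94205_c1 also held an annotation as tyrosine hydroxylase 2, so the division of reads between them is uncertain.

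The later enzymes of this route showed smaller differences or none. *hgd* (homogentisate dioxygenase) had 453, 522 and 590.3 CPM in the controls and 406, 384 and 401 CPM in the exposed fish, all lower, and was not called (log2 fold change -0.52, adjusted p = 0.134). DESeq2 did call it lower (adjusted p = 0.00713). *hpda* (hydroxyphenylpyruvate dioxygenase), which acts between *tat* and *hgd*, had 847, 1007 and 1541 CPM in the controls and 1186, 1073 and 1453 CPM in the exposed fish (log2 fold change 0.05, standard error 0.24). *fah* (fumarylacetoacetate hydrolase), the last step, overlapped the controls as well (-0.32, standard error 0.22). The differences of these genes were not tested against that of *tat*.

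**Figure D1:**
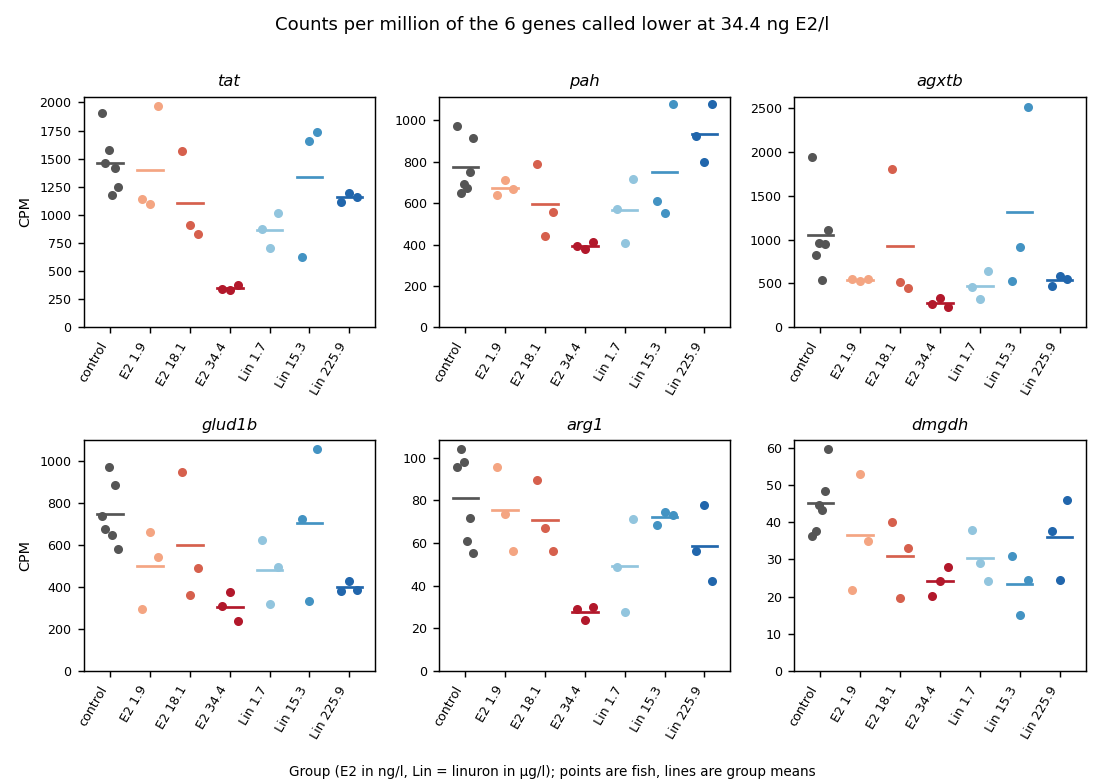
Summed CPM of *tat*, *pah*, *agxtb*, *glud1b*, *arg1* and *dmgdh* (y axis, CPM) in each fish of the 7 groups (x axis), with lines for group means. In each panel the 3 fish at 34.4 ng E2/l lie below all 6 controls, for *tat* at 329 to 372 CPM against at least 1174 CPM.

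The enzymes of glycine, serine and glyoxylate were divided. *agxtb* (ENSDARG00000018478), annotated as an alanine-glyoxylate aminotransferase that also acts on serine, had 535, 959 and 1943 CPM in the controls and 262, 330.3 and 237 CPM in the exposed fish. All 3 were lower than any control. The controls spread widely, with 1943 CPM in control fish 1 and 535 to 1111 CPM in the others. The level was 4.19-fold lower (log2 fold change -2.07, standard error 0.36, edgeR adjusted p = 0.00846), and the call was lost without exposed fish 1 (adjusted p = 0.0793) or 3 (0.0683). Its paralog *agxta* (ENSDARG00000052099) had 67.0, 125 and 147 CPM in the controls and 110.2, 108 and 140.2 CPM in the exposed fish (log2 fold change -0.12, standard error 0.23), so the groups overlapped.

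*dmgdh* (dimethylglycine dehydrogenase of choline breakdown, ENSDARG00000025703) had 36.3, 44.0 and 59.7 CPM in the controls and 20.1, 24.2 and 27.9 CPM in the exposed fish. It was called lower only as the sum of its 3 transcripts (2.05-fold, log2 fold change -1.04, standard error 0.21, edgeR adjusted p = 0.0195). The call was lost without exposed fish 1, 2 or 3 (adjusted p = 0.160, 0.0912 and 0.0661), with library totals (0.0633) and in the model of all 7 groups (0.0731). *gldc*, the decarboxylase of the glycine cleavage system, had 46.97, 121 and 187 CPM in the controls and 70.0, 65.0 and 58.2 CPM in the exposed fish, so that control fish 4 was the only control below them (log2 fold change -1.02, adjusted p = 0.149). Without that control its adjusted p was 0.0278. *psat1*, the aminotransferase of serine synthesis, had the opposite sign, with 4.70, 9.65 and 34.2 CPM in the controls and 41.0, 23.0 and 50.4 CPM in the exposed fish (log2 fold change 1.37, adjusted p = 0.147). Its adjusted p was 0.0152 without control fish 6, the highest control, and 0.0498 with the exact test.

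*sdsl*, annotated as a serine dehydratase-like enzyme, was not called (-0.26). *prodha* (proline dehydrogenase) was near the limit of counting in most fish. It had 1.21, 1.53 and 20.5 CPM in the controls and 0.474, 0 and 0.469 CPM in the exposed fish. It was not called (adjusted p = 0.0974), although all exposed fish were below all controls. *prodh2*, annotated as a proline dehydrogenase and known in mammals for hydroxyproline oxidation, had 195, 224 and 272 CPM in the controls and 344, 369 and 286 CPM in the exposed fish, all higher on the common scale of all fish and overlapping on the scale of this comparison, and was not called (log2 fold change 0.39, adjusted p = 0.297).

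Among the genes that collect and release the amino group, *glud1b* (glutamate dehydrogenase, ENSDARG00000002414) was called lower. It had 580.2, 707 and 971 CPM in the controls and 311, 378 and 237 CPM in the exposed fish, with no overlap. The level was 2.67-fold lower (log2 fold change -1.42, standard error 0.25, edgeR adjusted p = 0.00793), and the call was lost without exposed fish 1 (adjusted p = 0.0716) or 3 (0.0655). The other glutamate dehydrogenase, *glud1a*, had 88.3, 127 and 233 CPM in the controls and 69.7, 69.1 and 97.0 CPM in the exposed fish (log2 fold change -0.999, adjusted p = 0.0867). Both share component comp93791_c0, so reads could be split between them. The alanine aminotransferase *gpt2l* had 229.8, 253 and 323 CPM in the controls and 164, 187 and 189 CPM in the exposed fish. All exposed fish were lower, yet it missed the threshold (log2 fold change -0.71, adjusted p = 0.0570) and passed it with DESeq2, with a filter of 5 CPM and without control fish 1. The scarcer *gpt2* (log2 fold change -1.31, adjusted p = 0.0958) and *gpt* (-1.37, 0.532) were not called. The branched-chain aminotransferases *bcat1* (0.02, standard error 0.26) and *bcat2* (0.34, 0.25) and *abat*, which degrades 4-aminobutyrate (-0.20, 0.66), overlapped the controls.

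*got2a*, the mitochondrial aspartate aminotransferase, was not called as a sum (135, 178 and 210.1 CPM in the controls, 139, 160.3 and 110.5 CPM in the exposed fish, log2 fold change -0.49, adjusted p = 0.227). Of its 11 transcripts 2 were called lower, both in component comp93051_c0, which also held an annotation as the soluble enzyme *got1*. Transcript comp93051_c0_seq4 had counts of 154, 63, 41, 25, 59 and 187 in the controls and 2, 23 and 8 in the exposed fish (log2 fold change -3.40, edgeR adjusted p = 0.0234). Without exposed fish 1 or 3 its adjusted p was 0.174 and 0.171. Transcript comp93051_c0_seq1 had 52 counts over the controls and 0 over the 3 exposed fish, at least 11.1-fold lower against a floor of 3 counts over the group (edgeR adjusted p = 0.0309), and that call was lost without any 1 exposed fish or without control fish 1, 2, 5 or 6 (adjusted p = 0.0527 to 0.150). Most of the *got2a* reads came from other components.

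In arginine and ornithine metabolism, *arg1* (arginase, ENSDARG00000057429), which splits arginine into urea and ornithine, had 55.1, 83.8 and 104 CPM in the controls and 29.0, 24.1 and 30.1 CPM in the exposed fish. The exposed fish were well below the lowest control. The mean fell from 81.0 ± 20.9 (SD, n = 6) to 27.8 ± 3.21 CPM (SD, n = 3) on the common scale of all fish. On the scale of this comparison *arg1* was 3.20-fold lower (log2 fold change -1.68, standard error 0.26, edgeR adjusted p = 0.00369). *arg1* has 1 transcript, so its gene test and transcript test used the same counts, with different fits and adjustments. The gene test kept the call without each fish in turn. The transcript test lost it without exposed fish 1 (edgeR adjusted p = 0.0692) or 2 (0.0647).

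None of the other urea cycle enzymes listed was called. *ass1* (argininosuccinate synthase) had 0.966, 3.17 and 11.9 CPM in the controls and 19.2, 13.1 and 16.7 CPM in the exposed fish. All exposed fish were higher than all controls, and it was not called (log2 fold change 1.54, standard error 0.53, adjusted p = 0.136). Without control fish 4, its highest control, the adjusted p was 0.0355. *asl* (argininosuccinate lyase) overlapped fully, at 8.57 to 17.4 CPM in the controls and 14.0 to 15.9 CPM in the exposed fish. *otc* (ornithine carbamoyltransferase) was scarce in every group, at 0 to 4.50 CPM over the 24 fish. *oat* (ornithine aminotransferase, log2 fold change -0.64, adjusted p = 0.318) and *odc1* (ornithine decarboxylase, the entry to polyamine synthesis, -1.28, 0.448) were not called. *oaz1a*, an inhibitor of that enzyme, had 108, 119 and 129 CPM in the controls and 91.6, 107 and 83.3 CPM in the exposed fish (log2 fold change -0.48, adjusted p = 0.158), and DESeq2 called it lower (0.0275). *oaz1b* (-0.22) and *oaz2* (-0.45) were not called, and *arg2* was not listed in this comparison.

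**Figure D2:**
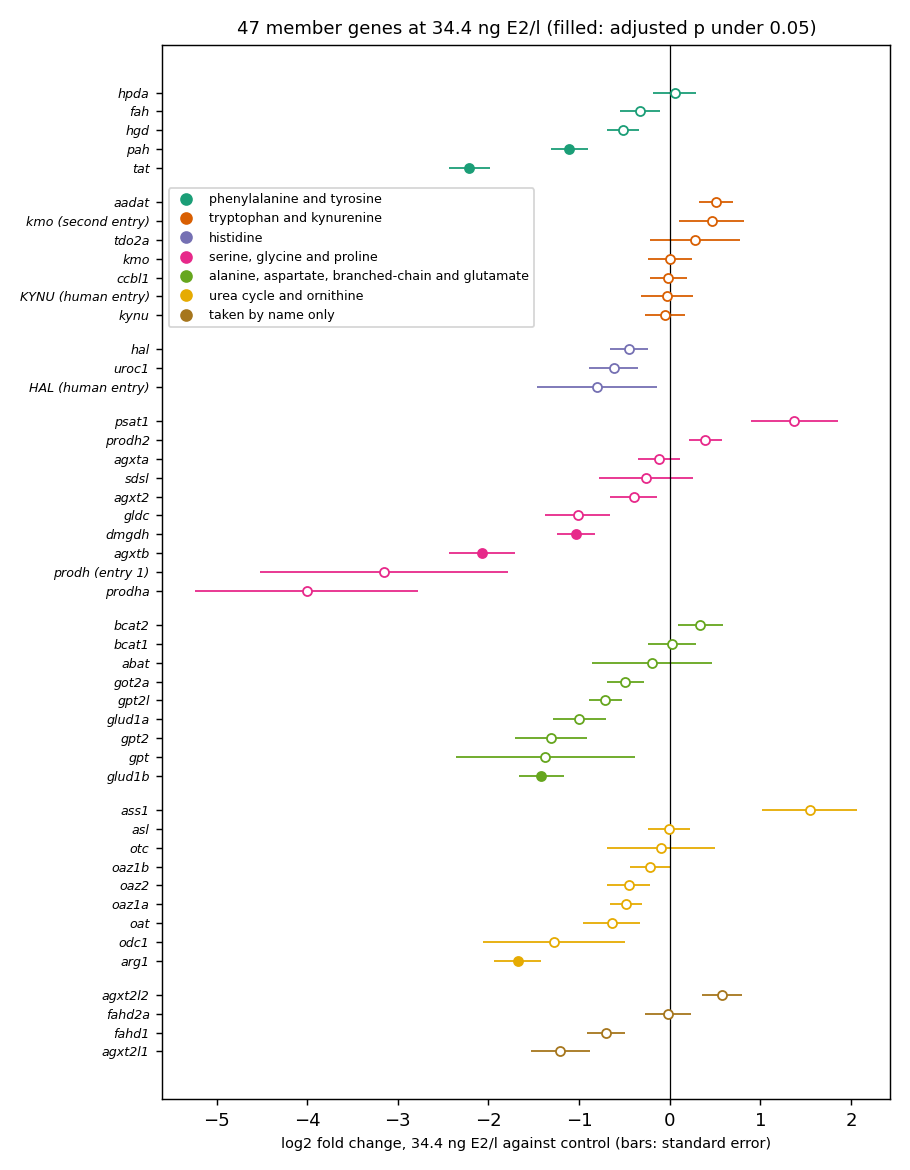
Log2 fold change (x axis) of the 47 member genes listed at 34.4 ng E2/l against control, from summed counts, grouped by route, with bars for 1 standard error. Filled points passed an adjusted p of 0.05: *tat*, *pah*, *agxtb*, *dmgdh*, *glud1b* and *arg1*, all to the left of 0.

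Tryptophan and histidine breakdown held no called member at 34.4 ng E2/l. Of the 69 transcripts of the tryptophan route, 54 had positive and 15 negative fold changes, none called. Of these 69, 34 were transcripts of 1 gene (*tdo2a*) in 1 component, and the 7 summed genes were divided into 4 positive and 3 negative with a median of 0.00085. *tdo2a* (tryptophan dioxygenase, the first step) had 46.4, 86.9 and 264 CPM in the controls and 172, 164 and 174 CPM in the exposed fish, well inside a wide control range. *kmo* (kynurenine monooxygenase, log2 fold change 0.00, standard error 0.24) and *kynu* (kynureninase, -0.05, 0.22) gave values near 0, as did *ccbl1* (a kynurenine aminotransferase, -0.02). *aadat* (kynurenine and aminoadipate aminotransferase) had 34.6, 42.6 and 49.5 CPM in the controls and 60.7, 80.1 and 55.8 CPM in the exposed fish, all higher, and was called only with library totals (log2 fold change 0.51, adjusted p = 0.166, and 0.0311 with library totals). For histidine, *hal* (histidine ammonia-lyase, -0.45, adjusted p = 0.285) and *uroc1* (urocanate hydratase, -0.62, 0.246) were not called.

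Of the 56 further genes of amino acid metabolism listed as a setting for these members, 1 was called higher and 3 lower at 34.4 ng E2/l, which is 1.79% and 5.36% of them beside 1.96% and 1.5% of all genes. *aldh18a1*, which starts proline synthesis from glutamate, was higher (log2 fold change 1.57, edgeR adjusted p = 0.00431). *glulb* (glutamine synthetase, -1.42, 0.0366), *gnmt* (glycine methyltransferase, -1.46, 0.00614) and *sat1b* (polyamine acetyltransferase, -1.46, 0.0112) were lower. None of the 18 genes of branched-chain breakdown was called.

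No member was called in either lower E2 group with edgeR's quasi-likelihood test, its exact test or DESeq2. At 18.1 ng E2/l this was 0 of 203 transcripts and 0 of 49 genes (0% of all transcripts and genes), with 0 higher and 8 lower transcripts at an unadjusted p under 0.05 (1.15% and 1.4% of all). At 1.9 ng E2/l it was 0 of 198 transcripts and 0 of 48 genes (0% of all), with 1 higher and 13 lower (1.62% and 2.45% of all). *tat* had 1564, 913 and 828 CPM at 18.1 ng E2/l and 1141, 1097 and 1969 CPM at 1.9 ng E2/l. At 18.1 ng/l fish 2 and 3 lay below the lowest control (1174 CPM), and fish 1 was inside the control range. *arg1* had 89.6, 67.0 and 56.2 CPM at 18.1 ng E2/l and 95.8, 73.8 and 56.4 CPM at 1.9 ng E2/l, all within the control range. The other genes called at 34.4 ng E2/l overlapped the controls but had some fish below the lowest control in both groups. At 18.1 ng E2/l *glud1b* had 949, 364 and 490 CPM, *pah* 791, 443 and 555, *agxtb* 1807, 519 and 451, and *dmgdh* 39.9, 19.7 and 33.1. At 1.9 ng E2/l *glud1b* had 295, 662 and 546 CPM, *pah* 640, 710 and 668, *agxtb* 546, 531 and 547, and *dmgdh* 21.7, 52.8 and 34.8.

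The members were also compared between the 34.4 and 18.1 ng/l groups, in 1 model of all 7 groups. Against 18.1 ng E2/l, the fish at 34.4 ng E2/l had 6 of 196 member transcripts called lower, all of *tat*, and 0 called higher (0.0994% lower and 0.298% higher of all transcripts). Of the summed genes, 2 of 47 were lower and 0 higher (0.369% and 0.495% of all). The lower genes were *tat* (3.40-fold, log2 fold change -1.77, standard error 0.33, edgeR adjusted p = 0.00810) and *arg1* (2.75-fold, -1.46, 0.31, 0.0225). No member transcript was called without fish 1, 2 or 3 of 34.4 ng E2/l or fish 1 of 18.1 ng E2/l, and 3 were without fish 3 of 18.1 ng E2/l. Both genes lost their call without fish 1 or 2 of 34.4 ng E2/l or fish 1 of 18.1 ng E2/l, and *arg1* also without fish 3 of 34.4 ng E2/l (adjusted p of *tat* 0.0600 to 0.0686 and of *arg1* 0.0914 to 0.135). With library totals the adjusted p of *arg1* was 0.0816.

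At 225.9 µg linuron/l 1 summed gene was called. No member transcript was called (0 of 198, beside 0.123% higher and 0.0295% lower of all), with 9 higher and 20 lower at an unadjusted p under 0.05 (3.88% and 4.73% of all). Of the 48 summed genes 1 was called higher and 0 lower, beside 0.539% higher and 0.183% lower of all genes. At an unadjusted p under 0.05, 5 genes were higher and 9 lower, beside 5.32% and 6.74% of all genes. The called gene was *agxta*, an alanine-glyoxylate aminotransferase. It had 67.0, 125 and 147 CPM in the controls and 289, 360.4 and 276 CPM in the 3 fish, all above the highest control. The level was 2.49-fold higher (log2 fold change 1.32, standard error 0.23, edgeR adjusted p = 0.0203). Of its 3 transcripts, comp84837_c0_seq1 and comp84837_c0_seq2 lay above all controls (adjusted p = 0.0881 and 0.0648). The call was lost without control fish 3 or 5 or any 1 exposed fish (adjusted p = 0.0510 to 0.117) or in the model of all 7 groups (0.0607). Without control fish 4, 4 genes were called (3 higher, 1 lower), and without control fish 1, 2 transcripts were called higher. DESeq2 called 10 transcripts (3 higher, 7 lower, beside 1.33% of all in either direction) and 9 genes (beside 3.53% of all): *agxta*, *uroc1* and *agxt2* higher, and *glud1a*, *glud1b*, *gpt2*, *hal*, *agxtb* and *gldc* lower. The exact test called 4 transcripts and 4 genes, 2 of each higher.

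*uroc1*, the enzyme that hydrates urocanate, had 70.8, 85.8 and 164 CPM in the controls and 371, 199 and 172 CPM at 225.9 µg linuron/l. All 3 were above the highest control, fish 3 only just, and it was not called (log2 fold change 1.26, standard error 0.30, adjusted p = 0.0921). Without control fish 4, the highest control, the adjusted p was 0.0229. *hal*, one step earlier in histidine breakdown, had the opposite sign, with 407 to 616 CPM in the controls and 340.1, 339.6 and 391 CPM in the exposed fish (log2 fold change -0.69, adjusted p = 0.161). *agxt2*, the mitochondrial alanine-glyoxylate enzyme, had 12.6, 15.2 and 28.7 CPM in the controls and 27.7, 33.8 and 54.3 CPM in the exposed fish (log2 fold change 1.06, adjusted p = 0.131). *gldc* was at 36.5, 53.4 and 39.7 CPM (-1.53, 0.101), and *glud1b* at 382, 432 and 386 CPM, below all controls (-0.98, 0.0821). The scarce *gpt2* was below all controls as well (-1.93, 0.105), and *agxtb* overlapped them (-1.05, 0.216).

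In the tyrosine route the fold changes of *pah* (0.21), *hpda* (0.43), *hgd* (0.50) and *fah* (0.42) were positive at 225.9 µg linuron/l and that of *tat* negative (-0.40), none called. *tat* had 1118, 1194 and 1159 CPM. All 3 fish lay below all controls on the scale of this comparison, and they overlapped the controls on the common scale. *hgd* had 831, 643 and 816 CPM, above the controls on the common scale of all fish and overlapping them on the scale of its own comparison. Of the 54 further genes of amino acid metabolism 2 were called higher (3.70% of them, beside 0.539% of all genes), *qdpra* (log2 fold change 1.37, edgeR adjusted p = 0.0293) and *qdprb1* (1.23, 0.0333), which encode dihydropteridine reductases that regenerate the cofactor of phenylalanine hydroxylase. The white blood cell markers overlapped the controls at 290.5 to 559 CPM. The 7 bile duct and stellate cell markers summed to 493 to 919 CPM against 299 to 449 CPM, while their median log2 fold change was -0.09. The liver markers summed to 77407 to 123793 CPM (median 81689 CPM) against 96861 to 135459 CPM. Red blood cell markers summed to 589 to 1774 CPM against 262 to 805 CPM. None of these markers was called, and their part in these values was not tested.

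**Figure D3:**
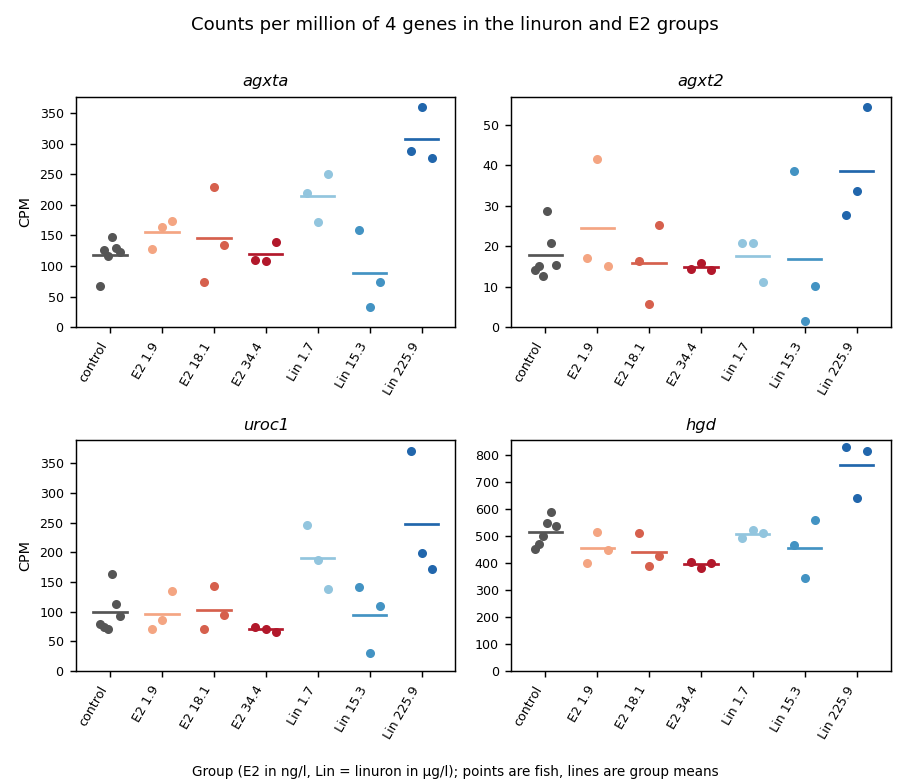
Summed CPM of *agxta*, *agxt2*, *uroc1* and *hgd* (y axis, CPM) in each fish of the 7 groups (x axis), with lines for group means. The 3 fish at 225.9 µg linuron/l have 276 to 360.4 CPM of *agxta*, above all controls, and *uroc1* at 172 to 371 CPM.

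High E2 and high linuron were compared directly in the model of all 7 groups. The fish at 34.4 ng E2/l had 15 of 196 member transcripts called lower and 0 higher than the fish at 225.9 µg linuron/l (0.266% lower and 0.666% higher of all). They were 8 of *tat*, 5 of *pah*, 1 of *hgd* and 1 of *uroc1*. Of the 47 summed genes 5 were lower and 0 higher (0.99% and 1.56% of all). These were *tat* (3.48-fold, log2 fold change -1.80, standard error 0.33, edgeR adjusted p = 0.00355), *pah* (2.48-fold, -1.31, 0.28, 0.0104), *hgd* (2.02-fold, -1.01, 0.22, 0.0114), *uroc1* (3.67-fold, -1.88, 0.46, 0.0262) and *arg1* (2.20-fold, -1.14, 0.31, 0.0480). For *hgd* and *uroc1* this is a difference between exposed groups that lay on opposite sides of the control median, and neither was called against the controls. *agxta* (-1.43, 0.0734) and *prodh2* (0.99, 0.0561) missed the threshold. Without fish 1, 2 or 3 of 34.4 ng E2/l, 2, 2 and 7 transcripts and 1, 1 and 2 genes were called, and without fish 1 or 3 of 225.9 µg linuron/l, 5 and 5 transcripts and 2 and 2 genes. Of the 5 genes *tat* alone kept its call under each alternative run, and *arg1* lost it under 8 of 11.

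No member was called at 15.3 or 1.7 µg linuron/l by edgeR's quasi-likelihood test. At 15.3 µg/l this was 0 of 209 transcripts and 0 of 50 genes (0% of all), with 8 higher and 7 lower transcripts at an unadjusted p under 0.05 (2.27% and 2.53% of all). DESeq2 called none, and the exact test called *odc1* alone. At 1.7 µg/l it was 0 of 200 transcripts and 0 of 49 genes (0% of all), with 12 higher and 37 lower transcripts at an unadjusted p under 0.05. The 37 were 18.5% of the members, beside 3.77% of all transcripts lower and 2.5% higher at that p. Transcripts of 1 gene count separately here: all 41 of the phenylalanine and tyrosine route, from 5 genes, had negative fold changes. Of the 49 summed genes, 2 were higher and 14 lower at that p, beside 3.57% and 4.15% of all genes. DESeq2 called 5 transcripts and 3 genes there, all lower: *tat*, *gldc* and *agxtb* (0.356% of all transcripts and 1.06% of all genes were called in either direction). In this group the bile duct and stellate cell markers summed to 420.1 to 655 CPM (299 to 449 CPM in the controls), the white blood cell markers to 428 to 632 CPM (264 to 564 CPM) and the liver markers to 86657 to 99805 CPM (96861 to 135459 CPM). All 3 sums overlapped the controls, none of the 29 markers was called, and their part in the lower transcripts was not tested. *tat* had 875, 707 and 1019 CPM at 1.7 µg linuron/l, below the lowest control (1174 CPM) (log2 fold change -0.81, adjusted p = 0.393). *agxta* had 219, 172 and 251 CPM there, above the highest control (147 CPM) (log2 fold change 0.80, adjusted p = 0.411). At 15.3 µg linuron/l both genes overlapped the controls. *agxta* had 159, 33.4 and 73.6 CPM in that group (log2 fold change -0.44, edgeR adjusted p = 0.320). *tat* had 622, 1656 and 1738 CPM (log2 fold change -0.19, edgeR adjusted p = 0.559).

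**Figure D4:**
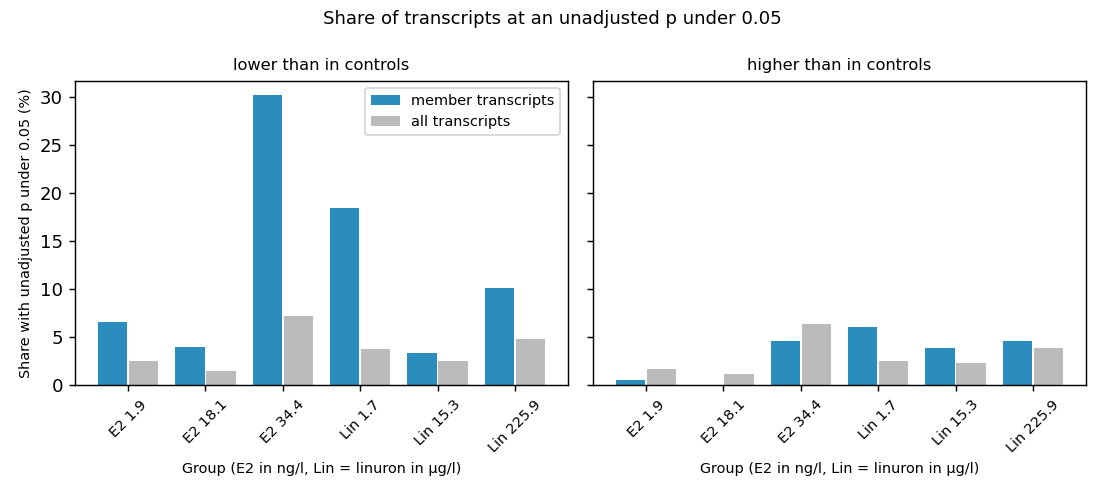
Share of transcripts (y axis, %) with an unadjusted p under 0.05 that were lower (left) or higher (right) than in the controls, in the 6 exposed groups (x axis), for the members (blue) and all transcripts (grey). The members' share of lower transcripts is 30.2% at 34.4 ng E2/l, beside 7.14% of all, and 18.5% at 1.7 µg linuron/l, beside 3.77%.

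Some members differed more between fish of a group than between groups. *odc1* had 6.90, 13.4 and 109 CPM in the controls, the highest in control fish 1. It had 92.1, 6.69 and 7.61 CPM at 18.1 ng E2/l and 8.91, 611 and 560.0 CPM at 15.3 µg linuron/l. In every other exposed fish it was between 5.86 and 17.2 CPM. The same 4 fish (control 1, fish 1 at 18.1 ng E2/l, fish 2 and 3 at 15.3 µg linuron/l) had the 4 highest levels of *oat*, the enzyme that draws ornithine toward glutamate, at 469.5, 538, 609 and 918 CPM, with 76.6 to 311 CPM in the other 20 fish. *prodha* was at 20.5, 6.71, 33.0 and 22.4 CPM in them and at 0 to 7.88 CPM in the rest. *agxtb* was at 1943, 1807, 912 and 2515 CPM in them and at 237 to 1111 CPM in the rest. *kmo* of the kynurenine route was low in these fish, at 95.8, 127, 64.4 and 66.0 CPM, with 163 to 375 CPM in the other 20. These fish were singled out after their values were seen. Without control fish 1 the counts at 34.4 ng E2/l were 33 transcripts and 9 genes, all called lower.

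**Figure D5:**
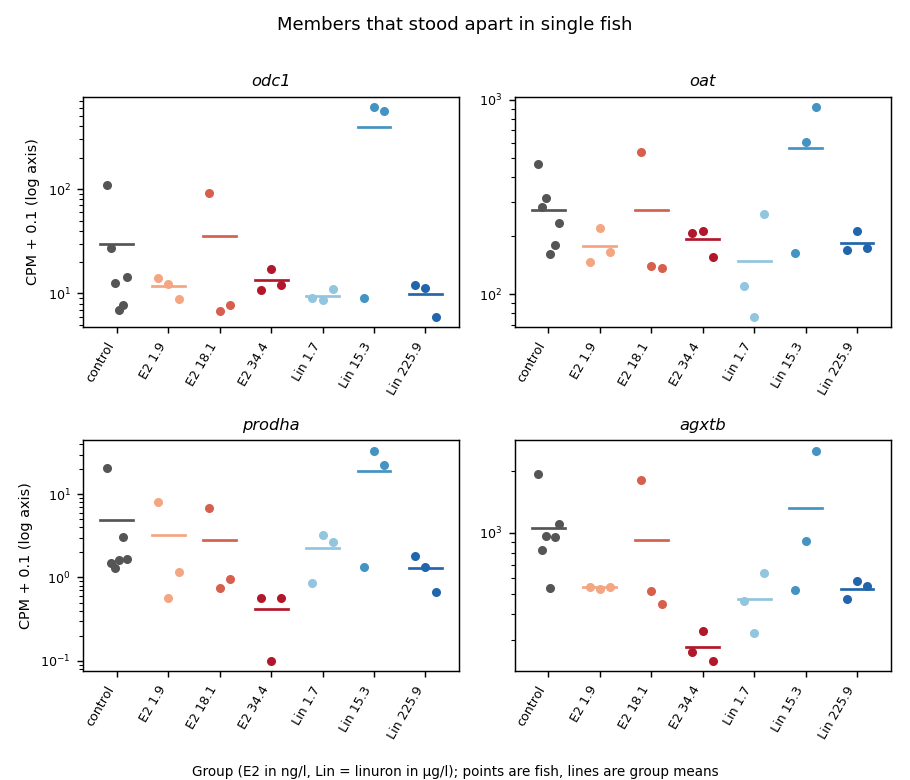
CPM + 0.1 of *odc1*, *oat*, *prodha* and *agxtb* (y axis, log scale) in each fish of the 7 groups (x axis), with lines for group means. In *odc1*, 4 fish lie at 92.1 to 611 CPM and all others at 27.0 CPM or below.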

How the data were processed

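Illumina TruSeq libraries were made from the livers of 24 male trout. The authors mapped reads to a Trinity transcriptome with Bowtie2 2.1.0, counted them with SAMtools 0.1.18 and deposited raw counts per transcript in 1 table per exposed group, each with the 6 controls. The tables also hold their fold changes, p-values and call columns, which were not used. Reporting 1 alignment per read can divide reads between similar contigs.

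Transcripts with at least 1 count in 3 fish were tested with edgeR 4.0.16 (TMM scaling, quasi-likelihood test, Benjamini-Hochberg adjustment over the whole table, threshold 0.05), and again after summing counts per annotated gene. Contrasts between exposed groups came from 1 model of all 7 groups. CPM per fish are on a scale common to all fish, while each test used its own table's scaling. No contig lengths were used, so levels are not compared between genes. Alternatives were DESeq2 1.42.0, edgeR's exact test, library totals, a 5 CPM filter, the model of all 7 groups, a replicate block and leaving out each fish. The code was tested on simulated data. P-values compare group differences with the spread between fish of a group. For E2, with a single tank per concentration, they do not cover the spread between tanks.

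Members and lists were chosen with earlier results of these data known. Genes named were those called in any comparison and those of the classical routes of breakdown, whether or not they changed. Listed genes with no match were not analysed here.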

Additional observations from a re-analysis of the deposited data

Results flagged for a closer look

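Of 47 member genes examined in the 6 control fish, 5 had a fish that stood far from the rest by Dixon's ratio. For normally distributed values chance gives about 1 in 20. The CPM were not transformed and the genes share the same fish, so that rate is only a rough guide. *odc1* was at 109 CPM in control fish 1 (others 6.90 to 27.0), *prodha* at 20.5 CPM (others 1.21 to 2.97) and *prodh* (entry 1) at 17.96 CPM (others 0 to 1.98) in the same fish. In control fish 6, *psat1* was at 34.2 CPM (others 4.70 to 15.3) and *abat* at 20.1 CPM (others 1.20 to 7.73).

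Exposed groups differed from each other in 7 tests of the difference itself. At 34.4 ng E2/l the log2 fold changes against 18.1 ng E2/l were -1.77 for *tat* and -1.46 for *arg1*. Against 225.9 µg linuron/l they were -1.80 for *tat*, -1.31 for *pah*, -1.01 for *hgd*, -1.88 for *uroc1* and -1.14 for *arg1*. Only *tat* against 225.9 µg linuron/l kept its call under each alternative run.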

How the results depend on the processing

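Of 116 counts under alternatives other than leaving out a fish, 93 stayed within 1.5 times the reported count. Counts of 0 that stayed at 0, as in the lower E2 and lower linuron groups, are among these 93. The share therefore says little about the comparisons that had calls. Shares of all features are not set beside the counts below. These counts therefore do not show how members compared with other features under each alternative. Of the tests of named genes and transcripts, 873 kept their direction and side of the threshold, 76 lost the call, 30 gained it and 50 changed sign. The cause of the changes was not tested. At 34.4 ng E2/l, leaving out 1 fish gave 10 to 34 transcripts and 2 to 9 genes. DESeq2 called 50 transcripts and 13 genes, the exact test 11 genes, and the model of all 7 groups 20 transcripts. At 225.9 µg linuron/l, leaving out 1 fish gave 0 to 2 transcripts and 0 to 4 genes. DESeq2 called 10 transcripts and 9 genes, of which 6 were lower, so the balance of calls turned. The exact test called 4 and 4, a filter of 5 CPM 2 transcripts, and the model of all 7 groups 0 genes. At 1.7 µg linuron/l DESeq2 called 5 transcripts and 3 genes, and at 15.3 µg/l the exact test called 1 gene. Leaving out 1 fish gave 0 calls in the comparisons of both lower E2 and both lower linuron groups. Against 225.9 µg linuron/l, the 34.4 ng E2/l fish had 2 to 11 transcripts and 1 to 5 genes with 1 fish left out, 36 and 11 with only the 6 fish, 35 transcripts with DESeq2, 7 transcripts and 3 genes with library totals, and 23 transcripts with the 5 CPM filter. Against 18.1 ng E2/l the ranges were 0 to 6 transcripts and 0 to 2 genes, and DESeq2 called 12 transcripts.

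The 50 changes of sign were all at 34.4 ng E2/l and in 13 genes whose reported log2 fold changes were at most 0.26 in size. None was called in either fit. The changed values were 0.11 for *abat*, 0.025 for *oaz1b*, 0.25 for *fahd2a*, 0.25 for *ccbl1*, 0.19 for *kynu*, 0.26 for *asl*, 0.12 for *agxta*, 0.13 for *otc* and 0.22 for *KYNU* (human entry) with library totals. They were 0.016 for *fahd2a*, 0.031 for *asl* and 0.0034 for *KYNU* (human entry) in the model of all 7 groups. For *kmo* the value was -0.018 both with DESeq2 and with RLE size factors. With 1 fish left out these values ran from -0.42 to 0.41 for *abat*, -0.13 to 0.080 for *kmo*, -0.066 to 0.20 for *hpda*, -0.13 to 0.12 for *fahd2a*, -0.081 to 0.086 for *ccbl1*, -0.16 to 0.020 for *kynu*, -0.12 to 0.066 for *asl*, -0.21 to 0.28 for *bcat1*, -0.71 to 0.28 for *otc*, -0.82 to 0.045 for *sdsl* and -0.28 to 0.18 for *KYNU* (human entry).

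Same-numbered fish did not deviate in a common direction (correlations with the control of the same number -0.431 to 0.237). With so few numbers these correlations cannot exclude that fish of 1 number shared handling. The main tests used no pairing. A replicate block left controls 4, 5 and 6 out of the contrasts with control, since no exposed fish carried these numbers. It gave 23 transcripts (21 lower) and 9 genes (7 lower) at 34.4 ng E2/l. Of the genes called there it lost *pah* (log2 fold change -1.08, adjusted p = 0.0849) and *dmgdh* (-0.85, 0.105), and it called *ass1* (2.90, 0.00917) and *psat1* (2.20, 0.0290) higher and *glud1a* (-1.22, 0.0441), *agxt2l1* (-1.48, 0.0357) and *prodha* (-4.17, 0.0496) lower. Under the block the values that changed sign were 0.51 for *abat*, 0.065 for *fahd2a*, 0.10 for *kynu*, 0.20 for *asl*, 0.12 for *agxta* and 0.072 for *otc*. At 225.9 µg linuron/l it gave 1 gene, *gldc*, lower, in place of *agxta* (adjusted p = 0.0684). It gave 6 transcripts for 34.4 ng E2/l against 225.9 µg linuron/l and 2 against 18.1 ng E2/l, and the adjusted p of *arg1* against 225.9 µg linuron/l was 0.0591.

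The levels of *otc* (4 to 31 counts per fish in the controls and at 34.4 ng E2/l) and of *prodha* at 34.4 ng E2/l (0 to 4 counts) rest on few counts. Library totals moved the all-gene median to 0.25 at 34.4 ng E2/l, and the median of member genes was then -0.18.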
